A study of Mus musculus with 7 samples.

Results

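The central and 5' part of the HoxA cluster, from Hoxa5 to Hoxa13, was examined for binding of HDAC1, a histone deacetylase that removes acetyl groups from histones and acts in corepressor complexes. The 7 members were Hoxa5, Hoxa6, Hoxa7, Hoxa9, Hoxa10, Hoxa11 and Hoxa13. An HDAC1 peak was assigned to them when it shared at least 1 bp with a member's gene body, extended by 10 kb on each side, in the GENCODE M21 annotation of mm10. This rule found 20 of the 15347 peaks in the list. The extended gene bodies overlap each other and form a single stretch on chromosome 6 of 79127 bp, from 52191754 to 52270880.

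Chromatin was precipitated with an HDAC1 antibody in 4 samples, and 3 further samples were input chromatin without antibody. All 7 came from forelimb and hindlimb buds of wild-type Swiss Webster embryos at E11.5 with 40 to 44 somites, and each sample pooled 3 litters. The authors called the peaks from all ChIP samples together, so the deposited list holds coordinates in rank order and no height, read number or value for a single sample. The values below therefore have no replicate error, and no test between samples could be made. The depth behind a peak is not known from the list, and weaker binding can lie below its threshold. Fore- and hindlimb buds with all their cell types were mixed, so binding in few or in many cells cannot be told apart. Peak coordinates do not measure expression, and the labelled tissue was not checked against marker genes.

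Hox genes encode homeodomain transcription factors that give cells their position along body axes. They lie in clusters in which the order of the genes matches the order in which they are used, and the genes at the 5' end of HoxA and HoxD pattern the limb from shoulder to digits. Hoxa9 and Hoxa10 act mainly in the proximal limb, Hoxa11 in the forearm and lower leg, and Hoxa13 in the hand and foot plate. Hoxa5, Hoxa6 and Hoxa7 are central genes of the cluster with known roles in the axial skeleton, and Hoxa5 also acts in the airways. All members are transcribed from the minus strand, so coordinates rise from the 3' end of the cluster to its 5' end, at Hoxa13.

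HDAC1 peaks covered 56396 bp of the joined windows (71.3%), and a single peak held 62.2% of this covered length. Inside the narrower span from the 3' end of Hoxa5 to the 5' end of Hoxa13, which is 59127 bp long, 90.3% was covered. Every member had an HDAC1 peak within 10 kb, as did 53.4% of the 21851 protein-coding genes, and every member had a peak over its gene body, as did 44.3% of these genes. A peak contained an annotated transcription start site (TSS) of each of the 7 members, against 32.8% of all protein-coding genes. At all 7 members at least 50% of the gene body was covered, a level that 246 genes (1.13%) reached. Among protein-coding genes with a body of at most 10 kb, to which all members belong, the share was 3.03%.

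**Figure D1:**
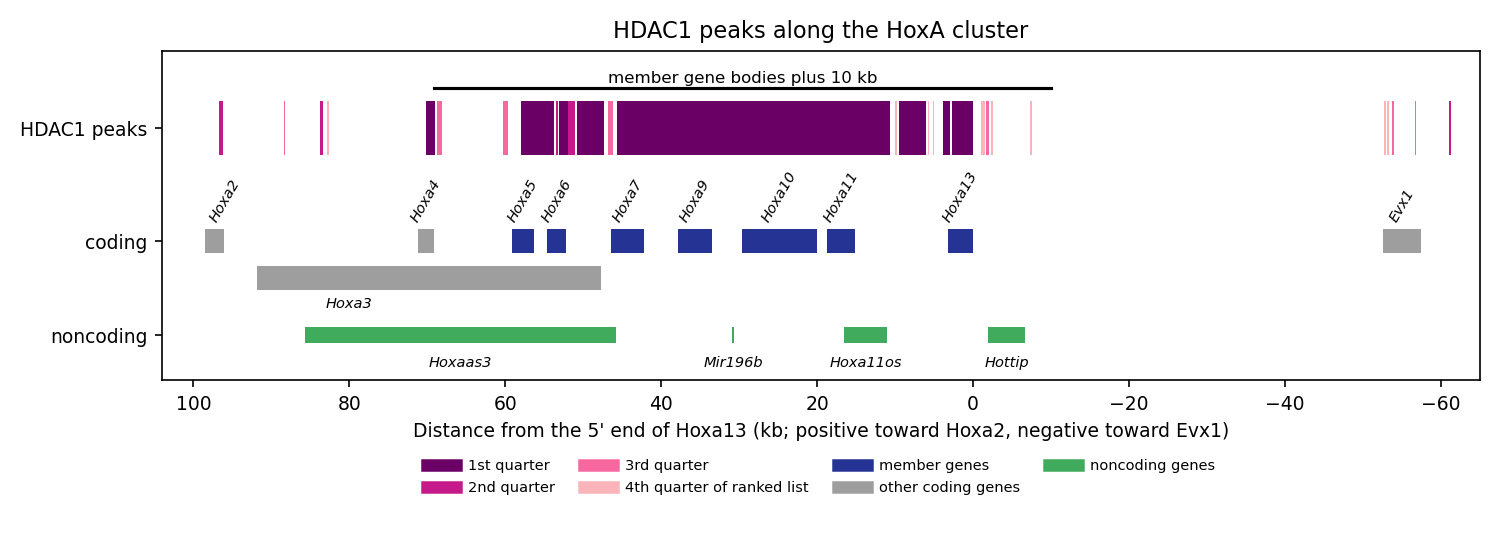
HDAC1 peaks (top row, darker where they stand nearer the top of the ranked list), protein-coding genes (member genes in blue, others in grey) and named noncoding genes (green) along the HoxA cluster; the x axis is the distance in kb from the 5' end of Hoxa13, and the black line marks the joined windows. Peaks fill most of the stretch from Hoxa5 to Hoxa13, including 1 peak of 35050 bp, and none lies in the 45250 bp between the last peak near Hoxa13 and the first peak at Evx1. Mir196b is drawn wider than its 85 bp.

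The sequences at the edges of the peaks show where the called peaks begin and end, and binding below the threshold can lie outside them. They are given from mm10 (RefSeq GRCm38.p6), with bases inside an HDAC1 peak in capitals and bases outside in lower case. The peak edges lie on a 50 bp grid, since the lengths of all 15347 peaks were multiples of 50 bp, so the change of case marks the edge of a called window and not the contact of the protein. The first and second are the 3' and 5' edges of the 35050 bp peak, on the plus strand at chr6:52215185-52215214 and chr6:52250190-52250309. The third is the Hoxa13 promoter on the minus strand, chr6:52260861-52261130, which runs from 250 bases before the RefSeq start site to 20 bases past it and in which 39 of 270 bases were in a peak. The last pair are the gaps of 50 bp on either side of the Hoxa6 promoter peak, with 10 bases of peak at each end, on the plus strand at chr6:52207690-52207759 and chr6:52208890-52208959.
3' edge of the longest peak: agcaggtgagctagcCAGCACACAATAGGT
5' edge of the longest peak: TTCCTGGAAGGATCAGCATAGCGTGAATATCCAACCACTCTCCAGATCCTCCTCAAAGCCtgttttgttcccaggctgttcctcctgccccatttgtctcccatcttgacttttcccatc
Hoxa13 promoter: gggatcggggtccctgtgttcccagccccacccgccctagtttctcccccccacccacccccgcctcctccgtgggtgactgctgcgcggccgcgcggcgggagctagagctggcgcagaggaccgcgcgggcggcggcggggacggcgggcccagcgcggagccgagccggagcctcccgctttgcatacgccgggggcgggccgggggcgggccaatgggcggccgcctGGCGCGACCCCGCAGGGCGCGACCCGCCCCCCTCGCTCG
Gap in the Hoxa6 intron: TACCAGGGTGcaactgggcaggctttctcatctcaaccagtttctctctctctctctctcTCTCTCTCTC
Gap upstream of Hoxa6: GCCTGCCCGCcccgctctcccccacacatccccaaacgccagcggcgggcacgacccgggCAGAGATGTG

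The longest peak began at 52215200 and ended at 52250249, and it stood at position 5 of the ranked list. It was 35050 bp long, 3.08 times the next longest peak of the list (11400 bp) and 77.9 times the median peak (450 bp). Its 3' edge lay in the untranslated last exon of Hoxa7, 702 bp from the 3' end of that gene. Its 5' edge lay between genes, 450 bp past the end of Hoxa11os, the antisense transcript of Hoxa11, and 7444 bp short of Hoxa13. The peak thus ran without a break over the starts and most of the bodies of 4 neighbouring genes.
Hoxa9, Hoxa10 and Hoxa11 lay in it entirely, as did the spaces of 4388 bp between Hoxa7 and Hoxa9, 3826 bp between Hoxa9 and Hoxa10 and 1251 bp between Hoxa10 and Hoxa11. In the whole annotation 50 genes (0.229%) had their body inside a single peak, and all 50 were at most 10 kb long, where they made 0.623%. By position, 11.4% of the longest peak was coding sequence of members, 18.4% untranslated exon, 30.5% intron and 39.7% lay outside the member bodies. It held 8 of the 13 annotated TSSs of the members. Without it, 3 of the 7 members (Hoxa5, Hoxa6 and Hoxa13) would have had a TSS in a peak, and 21346 bp of the windows would have been covered.

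At the 3' end of the stretch, the covered block began inside Hoxa5. The peak from 52202950 to 52207149 (4200 bp, position 1896) started in the Hoxa5 intron, contained the Hoxa5 TSS and reached into the Hoxa6 intron. It covered 57.8% of the Hoxa5 body (52201754 to 52204587) and 69.4% of its coding sequence. Hoxa5 was the member with the lowest covered share, since its 3' end lay in an uncovered gap of 1700 bp. The other 6 members had all of their coding sequence in peaks.
Hoxa6 (52206288 to 52208722) was covered to 87.7% by 3 peaks. The Hoxa6 TSS lay in the peak from 52207750 to 52208899 (1150 bp, position 2021), 177 bp from its upstream edge. Its neighbours were a peak of 300 bp (position 4792) and a peak of 850 bp (position 5328), separated from it by gaps of 50 bp each. The printed gap inside the Hoxa6 intron had 50% GC and no CpG, and 52.0% of it was soft-masked as repeat in the reference, with a run of CT repeats at its end. In contrast, the gap upstream of Hoxa6 had 76.0% GC and no repeat. Gaps of the same length thus differed widely in base composition.

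Between Hoxa6 and Hoxa7, the peak from 52210050 to 52213599 (3550 bp, position 1824) contained no TSS of a member. It contained the annotated TSS of Hoxa3 at 52213115, whose long transcript runs over Hoxa4, Hoxa5 and Hoxa6, and that of the gene model Gm28308. Reads here cannot be divided between these overlapping genes. The space between Hoxa6 and Hoxa7 was covered to 86.2%.
Hoxa7 (52214498 to 52218711) was covered to 87.0%. Its uncovered part was a gap of 550 bp in the untranslated last exon, between a peak of 550 bp at position 8560 and the longest peak. The 3 annotated Hoxa7 TSSs lay 2252 to 3511 bp inside the 3' edge of the longest peak. Further in, the Hoxa9 TSSs were 10989 and 12170 bp and the Hoxa10 TSSs 19739 and 25654 bp from that edge. The Hoxa11 TSS, at 52245810, was the nearest of these starts to the 5' edge, at 4439 bp.

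Noncoding genes in the stretch were covered to different degrees. Hoxa11os (52244393 to 52249799) lay in the longest peak over its whole 5407 bp. Mir196b (52230081 to 52230165), between Hoxa9 and Hoxa10 in the coding annotation, also lay inside that peak. This microRNA is known to target Hox transcripts. Its mature strands, taken from RefSeq with the seed (bases 2 to 8) in capitals, are:
mmu-miR-196b-5p: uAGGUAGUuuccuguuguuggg
mmu-miR-196b-3p: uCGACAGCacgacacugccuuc
Hottip, a long noncoding RNA known to act on the 5' HoxA genes, had its start in a peak of 500 bp at position 11133, but peaks covered 9.84% of its 4829 bp. Hoxaas3, an antisense transcript that runs from within Hoxa3 over Hoxa4, Hoxa5 and Hoxa6 into the 3' end of Hoxa7, was covered to 34.4% and its start was in no peak. Reads at Hoxa11os and at Hoxaas3 overlap coding genes on the other strand, and ChIP reads do not separate strands.

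The space of 11883 bp between Hoxa11 and Hoxa13 was covered to 77.7% and held no TSS of a protein-coding gene. The longest peak took up its first 4439 bp. Beyond that peak, the largest in this space was an intergenic peak from 52251350 to 52254799 (3450 bp, position 1056). After a peak of 250 bp at position 12381, this peak was followed by 2 peaks of 200 bp at positions 12408 and 14800. The longest gap in this space, 1100 bp, had 34.7% GC. At the Hoxa13 end, a peak of 900 bp (position 3128) reached over the 3' end of the gene. Of the 5 peaks past the longest peak and before the one at the Hoxa13 start, 3 were thus at most 250 bp long and stood at positions 12381 to 14800.
Hoxa13 (52257694 to 52260880) was covered to 92.2% by a pair of peaks. The peak from 52258150 to 52260899 (2750 bp, position 1415) held all 3 annotated TSSs and the complete coding sequence. It ended 19 bp upstream of the most 5' TSS, so that 23.0% of the 300 bp promoter window (250 bp before to 50 bp after the start) was covered. At Hoxa5, Hoxa7, Hoxa9, Hoxa10 and Hoxa11 this window was covered completely, and at Hoxa6 to 83.3%. Upstream of Hoxa13 the gap was 950 bp long, with 59.8% GC and 5.58 CpG per 100 bp, the printed promoter being its start. The peak at Hoxa13 therefore covered the start of the gene but little of the sequence before it.

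Past this gap, 3 short peaks lay between 52261850 and 52263399, at positions 15164, 11133 and 14182 of 15347. A peak of 250 bp from 52268150 to 52268399 (position 11989), 7270 bp upstream of the Hoxa13 start, was the most 5' in the windows. No peak was listed for the next 45250 bp, up to a peak of 250 bp within Evx1 (position 13848). Evx1, the homeobox gene at the 5' end of the cluster, had 4 peaks over its body, with lengths of 150 to 300 bp, and its annotated starts were in no peak. The 10 kb limit therefore did not cut into a group of peaks on this side, as the nearest peak outside was 42769 bp from the window.
On the 3' side, the outermost peak reached 146 bp into the windows. This peak, from 52190700 to 52191899 (1200 bp, position 2414), contained the TSS of Hoxa4, which is not a member, and was the least secure assignment. The next peak outside, of 200 bp (position 13337), was 13504 bp from the windows. The space of 10000 bp between Hoxa4 and Hoxa5 was covered to 14.5%, and it contained the longest gap of the stretch, 7850 bp. From the 3' end of Hoxa2 to that of the windows, 29337 bp, 8.19% was covered by 5 peaks, of which the longest was that at Hoxa4. Hoxa2 was covered to 22.8% and Hoxa4 to 50.6%.

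The 20 peaks differed widely in length and rank. Their lengths ran from 200 to 35050 bp, with a median of 650 bp, and 7 of them (35%) were at least 1000 bp long, against 17.6% in the whole list. At the other end, 5 were shorter than 300 bp, and in the whole list 24.0% were. A total of 7 peaks overlapped a member body and 13 did not. Of the 41 peaks in the list of at least 5 kb, 1 was in the windows.
Of the 20 peaks, 10 stood in the first 7673 positions of the list, but these held most of the covered length, as 52346 bp remained covered with them alone. Positions ran from 5 to 15164. Longer peaks stood nearer the top, with a Spearman rho between position and length of -0.90 over the 20 peaks and -0.75 over all 15347. These peaks share a locus and the same libraries, and the score behind the order was not used here.

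**Figure D2:**
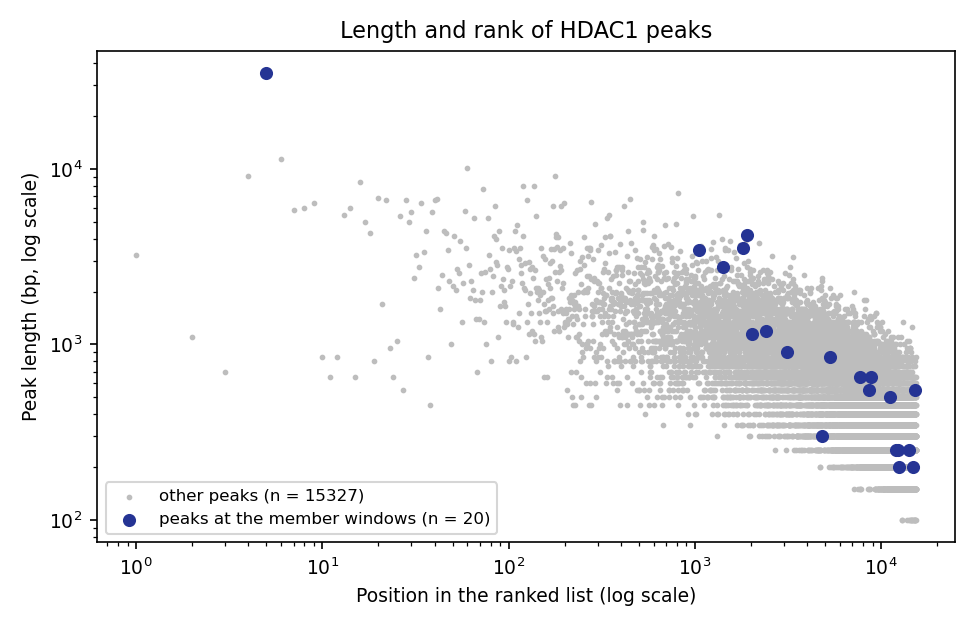
Length of each HDAC1 peak in bp (y axis, log scale) against its position in the ranked list (x axis, log scale), with the 20 peaks at the member windows in blue and all other peaks of the list in grey. The longest peak, 35050 bp at position 5, stands above all others, and the remaining 19 run from 4200 bp down to 200 bp.

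The 19 gaps between neighbouring peaks were short compared with the peaks. They ran from 50 to 7850 bp with a median of 300 bp, 10 of them were at most 300 bp, and 4 were longer than 1000 bp. Joining peaks across gaps of up to 1000 bp left 5 blocks. The longest block, of 52950 bp from 52202950 to 52255899, was made of 11 peaks and held the TSSs of Hoxa5, Hoxa6, Hoxa7, Hoxa9, Hoxa10 and Hoxa11. Hoxa13 was in a separate block of 6400 bp, from 52257000 to 52263399, made of 5 peaks. The break between these blocks was the AT-rich gap of 1100 bp described above. It was just over the joining limit, while the gap of 950 bp upstream of Hoxa13 was just under it. No other joining distance was run, so the split depends on this limit. Over the whole stretch, 96.3% of the members' coding sequence, 97.0% of their introns and 83.3% of their untranslated exons were in peaks. Outside the members' bodies 58.1% was covered, a share that includes the 10 kb added at each end. The spaces between neighbouring members were covered to 77.7% to 100%, and the 10000 bp beyond the 3' end of Hoxa5 to 14.5%.

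Base composition, which the assignment of peaks did not use, differed along the stretch. Covered sequence had 51.8% GC and 3.64 CpG per 100 bp, and uncovered sequence 45.1% GC and 1.54 CpG per 100 bp. Much of the uncovered sequence lay in the 10 kb added at each end, including gaps of 7850 and 4750 bp. This comparison is therefore partly one of the members with their flanks. The share soft-masked as repeat was 11.7% in covered and 15.7% in uncovered sequence. In bins of 500 bp, 97 bins covered completely had 0.2 to 17.4 CpG per 100 bp (median 3.4), and 33 bins without any peak had 0 to 3 (median 0.8). The ranges overlapped, so that peaks also lay over CpG-poor sequence. Neighbouring bins are not independent, and mappability and GC bias of the reads were not tested.
Compared with the rest of the list, the peaks here were poor in CpG. The median peak of the 20 had 50.95% GC and 2.71 CpG per 100 bp, and the median of all peaks was 62.9% GC and 7.40 CpG per 100 bp. The longest peak had 3.44 CpG per 100 bp. Among all peaks of at least 1000 bp, 4.74% had as few or fewer, and their median was 8.67, against 4.26 for the 7 such peaks in the windows. The 10 longest peaks of the list all lay below that median, with 2.70 to 5.54 CpG per 100 bp. They included the peak of 9050 bp at Hoxd10 (2.96) and the peak of 11400 bp at Tnrc18 (5.04).

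**Figure D3:**
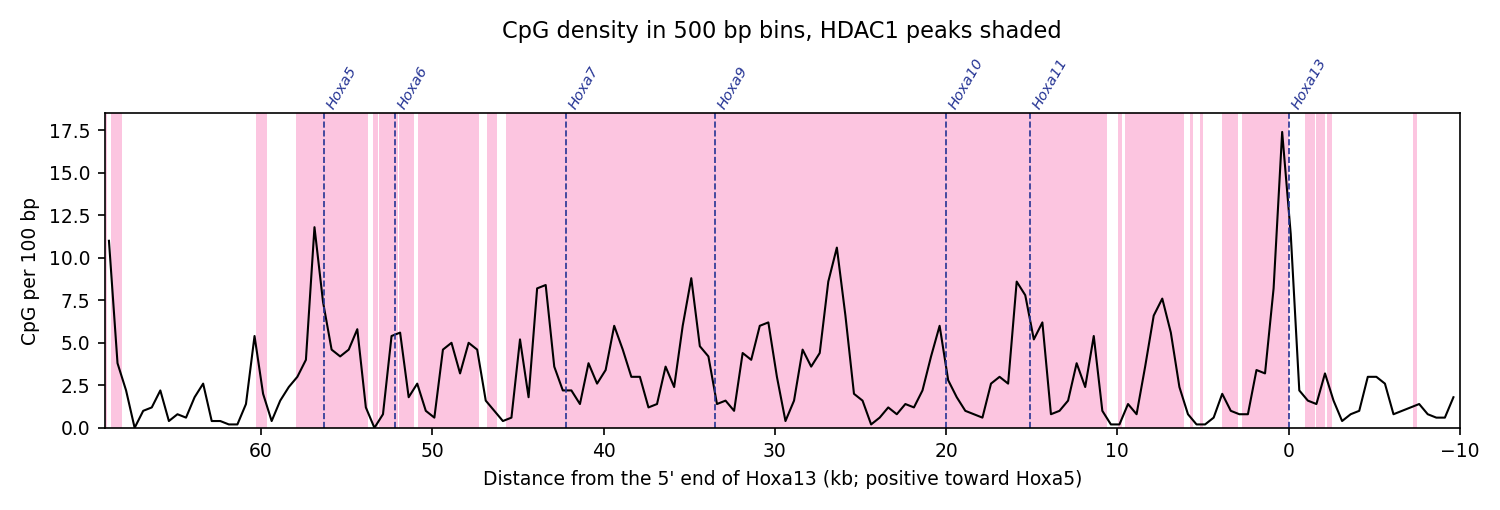
CpG dinucleotides per 100 bp in bins of 500 bp along the joined windows (y axis), by distance in kb from the 5' end of Hoxa13 (x axis), with HDAC1 peaks shaded and the most 5' TSS of each member as a dashed line. The highest bin, with 17.4 CpG per 100 bp, lies in the Hoxa13 gene. The longest peak, which holds the starts of Hoxa7 to Hoxa11, has 3.44 CpG per 100 bp, and uncovered sequence 1.54.

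Exact matches to a GLI motif, TGGGTGGTC, were searched on both strands, since the study is about GLI transcription factors. The joined windows held 1 match, in the Hoxa10 intron at chr6:52239880-52239888 on the minus strand, inside the longest peak and 974 bp from a Hoxa10 TSS. With its flanks in lower case and the motif in capitals it reads:
GLI match in Hoxa10: ggaaacaaTGGGTGGTCagcgtctg
With 1 match, the covered sequence held 0.0177 per kb, and all peaks of the list held 100 matches, or 0.00999 per kb. None of the 8 RefSeq promoters of the members contained this motif, which 0.253% of 32851 promoters of the same length did. For AGGGGGC, a core of the motif of the insulator protein CTCF, 19 of 23 matches on both strands lay in peaks. This was 0.337 per kb in covered and 0.176 per kb in uncovered sequence, and 0.496 per kb in all peaks of the list. The uncovered rate rests on 4 matches. The motif consists mostly of G and C, and the GC share of these sequences was 51.8%, 45.1% and 62.7% in the same order. Whether the rates differ beyond base composition was not tested. Among the members' promoters 1 held it, at Hoxa10, against 10.6% of all promoters. The GLI match overlapped no match of the other motif, and a match does not show that a factor was bound.

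The other Hox clusters were compared by the share of each gene body in peaks. Peaks covered 58.1% of HoxA from Hoxa2 to Hoxa13 (98464 bp) and, from the first to the last Hox gene, 36.1% of HoxD (96833 bp), 12.4% of HoxC (115750 bp) and 2.33% of HoxB (173941 bp). HoxD had more peaks than this stretch of HoxA (28 against 20), but its longest was 9050 bp. In HoxC the longest peak was 2300 bp and in HoxB 700 bp. These clusters are single loci without replicates, and the differences between them were not tested.
Among genes related by descent to the members, the HoxD genes came closest. The bodies of Hoxd9 and Hoxd11 were covered to 100%, as were those of Hoxa9 and Hoxa11, and Hoxd10 was covered to 93.7%. With 10 kb added on each side, Hoxd9, Hoxd10, Hoxd11 and Hoxd13 were covered to 73.9%, 84.5%, 85.7% and 49.6%. The same windows of Hoxa9, Hoxa10, Hoxa11 and Hoxa13 were covered to 95.7%, 98.0%, 93.5% and 51.1%. For the group of Hoxa13, Hoxd13 was covered to 80.2%, and Hoxb13 and Hoxc13 had no peak over their bodies. Hoxc11 (92.1%) stood near Hoxa11, whereas Hoxc10 (24.6%) and Hoxc9 (27.9%) were lower than Hoxa10 and Hoxa9. At Hoxb9, 593 of 5139 bp were in peaks. In the central groups, Hoxb5, Hoxb6 and Hoxb7 had no peak over their bodies, Hoxc5 was covered to 37.3% and Hoxc6 to 10.8%, below Hoxa5 and Hoxa6.

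**Figure D4:**
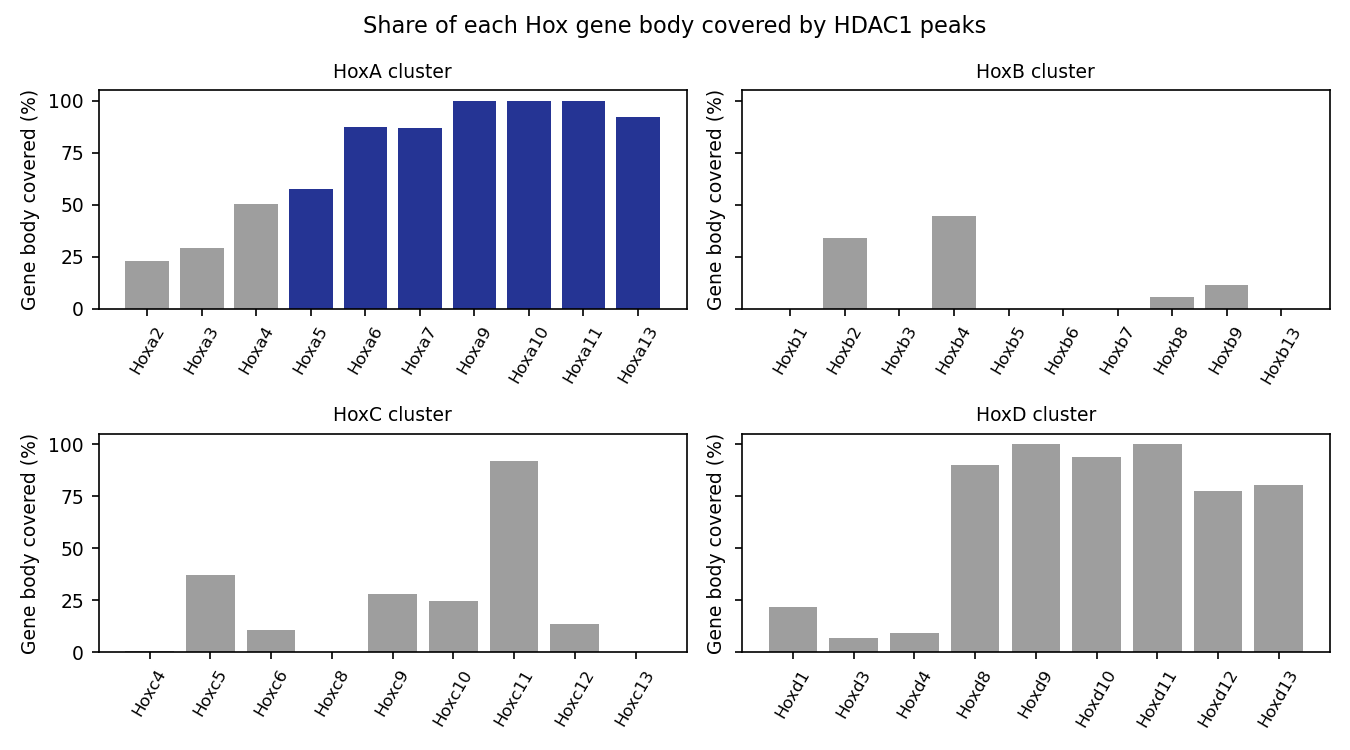
Percent of each gene body covered by HDAC1 peaks (y axis) for genes of the 4 Hox clusters, HoxA from Hoxa2, ordered by number (x axis), with the member genes in blue; each bar is a single value without replicates. In HoxA the share is 57.8% at Hoxa5 and 100% at Hoxa9, Hoxa10 and Hoxa11, and in HoxB no gene is above 44.5%.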

How the data were processed

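The authors deposited 1 list of HDAC1 peaks for 4 ChIP and 3 input samples. Its 3 columns are chromosome and base positions in rank order, not counts or a signal. Per the paper's methods, peaks were called with CisGenome, and its source data legend gives a false discovery rate below 0.05. That legend also names a fold change and false discovery rate for each peak, which were not used here. Per the submitters' processing notes, the build was mm10 and Bowtie2 2.2.5 was used. Library totals are not in the list.

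Positions were read as 1-based with both ends included, and all peaks ended within the GRCm38 chromosomes. Gene bodies and TSSs came from protein-coding transcripts of the GENCODE M21 basic annotation, and sequences from RefSeq GRCm38.p6. Overlap meant at least 1 bp. Repeats are the lower-case bases of the reference. No test was run, since regions of a single list are not replicates. The interval procedures were tested on simulated data and matched a base-by-base count in 2000 of 2000 cases. Python 3.11.15 and matplotlib 3.10.9 were used.

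Alternatives were the width of the windows, the overlap, the upper part of the ranked list alone, joining, the coordinate convention, the annotation and leaving out the longest peak. Named were all members, other HoxA genes, Evx1, named noncoding genes, paralogues of the members, HOX cofactors and the longest peaks. Gm28308 falls outside this rule and was named after its values were seen. Some items that this rule covers are not reported here. The members and lists were chosen with earlier results of these data known.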

Additional observations from a re-analysis of the deposited data

How the results depend on the processing

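With gene bodies alone, 7 peaks and 28008 covered bp were found in place of 20 and 56396, and the share of all protein-coding genes with a peak was 44.3% in place of 53.4%. That share was 49.9% with 5 kb, 58.9% with 20 kb and 37.8% with the first 7673 peaks of the ranked list, which left 10 peaks and 9 gaps. Joining peaks no more than 1000 bp apart gave 5 blocks, 4 gaps and a longest block of 52950 bp. Without the longest peak, 21346 bp, 3 members with a TSS in a peak and 4 with a peak over the body remained. These changes follow from how the alternatives are built. The other 17 of 31 recomputed values stayed within 1.5 times the main value or, for the share of genes, within its 95% interval. This was a binomial interval over all protein-coding genes, 52.7% to 54.0%. It served only as a cut-off and measures no replicate spread, since the genes are the whole annotation and neighbours can share a peak. No paired analysis was possible because the list is a single list that carries no replicate number, and no replicate could be left out for the same reason.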

Other observations

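HOX proteins bind DNA together with cofactors of the TALE homeobox family, and the genes of 8 such cofactors were examined. Of these, 5 had a TSS in an HDAC1 peak (Pbx2, Pbx3, Meis1, Meis2 and Pknox1), against 32.8% of all protein-coding genes, and none had 50% of its body covered. Genes with several annotated starts reach this count more easily. In peaks were 2 of 3 starts of Pbx2, 3 of 4 of Meis2 and 3 of 7 of Pknox1. Among the 8, only Pbx3 and Meis1 had every annotated start in a peak, as did 23.0% of all protein-coding genes. Meis1, a marker of the proximal limb, had its 4 annotated starts in a peak of 7300 bp at position 807, among the 10 longest of the list, although peaks covered 4.70% of its 139169 bp. The 2 starts of Pbx3 were in a peak of 2000 bp at position 2169. Pbx2 was covered to 31.8% of its 6135 bp, the highest share among the 8. These genes are mostly much longer than the Hox genes, so their covered shares are not on the same footing.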
